A study of Mus musculus with 6 samples.

Results

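The atrophy ligases Fbxo32, Trim63, Fbxo30 and Fbxo31, the FoxO factors Foxo1, Foxo3 and Foxo4, the transcription factors Klf15 and Cebpd, and Tnfrsf12a, which encodes the receptor Fn14, were followed in hind leg muscle of control (Con) and exercise (EX) mice. They were taken by gene symbol from the deposited expression table, which held all 10 among its 16759 genes. Both groups were male C57BL/6J mice that were 8 weeks old at the start. The 3 EX mice had 6 weeks of treadmill running, with 5 daily sessions of 60 min a week and 22 km run by each mouse, and tissue was taken 24 h after their final run. The 3 Con mice were not trained, and the hour at which they were killed is not given in the sources used here. Each mouse gave 1 RNA library from a small piece of muscle, and the labels do not say which hind leg muscle it was. Mice were perfused with saline and the fat between the muscles was removed.

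Skeletal muscle loses mass when proteins are broken down faster than they are made, and much of this breakdown runs through the ubiquitin-proteasome system. Atrogin-1 (Fbxo32) and MuRF1 (Trim63) are the muscle ubiquitin ligases best known for rising in fasting, disuse and glucocorticoid excess. FoxO transcription factors switch on both genes when the kinase Akt, which keeps FoxO proteins out of the nucleus, is less active. The glucocorticoid receptor acts beside them, and Klf15 and Cebpd are among the genes it induces. Fn14 is the receptor for the cytokine TWEAK, is scarce in resting muscle and is known to rise on denervation and injury.

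The promoter of Trim63 is shown because a glucocorticoid response element and a FoxO site stand next to each other in it, and that of Tnfrsf12a because this gene had the largest difference between EX and Con among the 10. Both windows are from RefSeq on build GRCm38.p6, run 5′ to 3′ from 250 bases before to 50 bases after the first base of the gene, and are on the plus strand for Trim63 (chr4:134314870-134315169) and on the minus strand for Tnfrsf12a (chr17:23677400-23677699). Capitals mark the matches to the motifs searched, and Tnfrsf12a has none.
Trim63: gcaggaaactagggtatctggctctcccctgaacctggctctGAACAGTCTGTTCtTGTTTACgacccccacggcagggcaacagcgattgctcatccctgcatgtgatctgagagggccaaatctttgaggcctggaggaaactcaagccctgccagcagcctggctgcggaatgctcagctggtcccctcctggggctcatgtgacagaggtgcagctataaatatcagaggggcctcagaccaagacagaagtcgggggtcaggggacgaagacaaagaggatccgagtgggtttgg
Tnfrsf12a: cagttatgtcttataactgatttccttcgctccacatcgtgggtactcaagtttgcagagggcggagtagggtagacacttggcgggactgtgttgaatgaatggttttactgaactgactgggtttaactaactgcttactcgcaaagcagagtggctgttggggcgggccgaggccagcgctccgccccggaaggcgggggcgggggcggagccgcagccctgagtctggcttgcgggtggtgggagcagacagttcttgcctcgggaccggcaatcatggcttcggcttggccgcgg

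In the Trim63 window, the 13 bases GAACAGTCTGTTC began 208 bases before the gene start and matched the glucocorticoid response element, searched as GNACA and TGTNC with any 3 bases between them. The FoxO site GTAAACA followed on the opposite strand after 1 base, read here as TGTTTAC. Of 32851 promoter windows of the same length, 3.65% held this FoxO site and 0.475% held this response element on either strand. Only 5 windows held both, and only the Trim63 window held them within 10 bases of each other. The other motifs searched on both strands were the C/EBP site TTGCNNAA, the KLF site GGGNGTGG and the NF-kB site, searched as GGGANTT followed by NCC, held by 10.8%, 17.6% and 1.2% of the windows. Windows were found for 7 of the 10 genes. Beside Trim63, only Fbxo31 held a match, with 3 KLF sites. Fbxo32, Foxo4 and Cebpd were not among the windows.

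The libraries were alike in depth, with 13845362 to 16240431 estimated counts on genes. EX was compared with Con by edgeR's quasi-likelihood test on the counts, with Benjamini-Hochberg adjustment over 10883 genes whose mean reached 1 FPKM, and a change was called at an adjusted p-value under 0.05. All 10 genes passed this filter. Libraries are compared in CPM after TMM scaling, and genes are compared in FPKM, which also divides by length. The tissue was clearly muscle: 10 fibre markers such as Ckm, Acta1 and Myh4 summed to between 123100 and 131400 TPM in each library. The slow fibre markers summed to 137 to 151 TPM in Con and 427 to 462 TPM in EX, and all 7 tested were higher in EX, with a median log2 fold change of 4.26. Myh7, the slow myosin heavy chain, stood at 0.891 to 1.19 CPM in Con and 96.7 to 111 CPM in EX, and the part of this difference in the results below was not tested. Of all genes tested, 50.9% of the calls were increases, against 37.7% when libraries were scaled to totals without the 20 most abundant genes, 28.4% with limma on FPKM and 16.8% with limma on TPM. The median log2 fold change of all genes was -0.03, -0.06 and -0.09 in these 3 alternatives.

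Per length, Trim63 was the most abundant of the 10 transcripts and Fbxo32 the next, in Con and in EX. In Con, their mean levels were 326 and 102 FPKM, or ranks 284 and 780 over the 6 libraries among the genes tested. Foxo4 followed with 45.2 FPKM and Fbxo31 with 41.3 FPKM. Tnfrsf12a stood at 28.3 FPKM, Klf15 at 24.4 FPKM and Cebpd at 10.6 FPKM. Foxo1 with 6.42 FPKM, Foxo3 with 5.78 FPKM and Fbxo30 with 5.55 FPKM were the lowest, and only Foxo3 and Fbxo30 had Con values that overlapped as neighbours in this order. In EX, Foxo3 and Fbxo30 again overlapped, and the order was the same except that Tnfrsf12a, at 14.45 FPKM, stood below Klf15, at 19.7 FPKM.

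**Figure D1:**
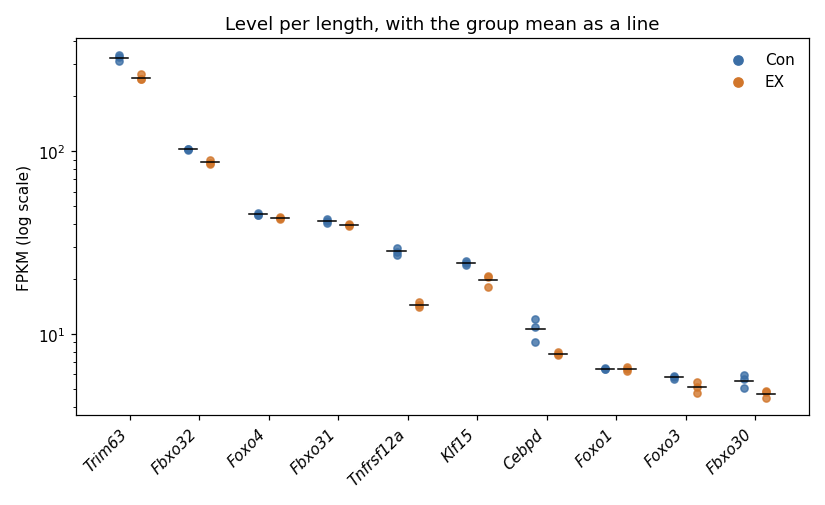
Level of each of the 10 genes in FPKM on a log scale, with 1 point per library (3 Con, 3 EX) and the group mean as a line, ordered by the Con mean. Trim63 is the most abundant in both groups, and the 3 EX points of Tnfrsf12a lie well below its Con points.

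Of the 10 genes, 4 changed between EX and Con, and all 4 were lower in EX: Fbxo32, Trim63, Cebpd and Tnfrsf12a. Among all genes tested, 17.9% were called in either direction, 8.8% were called lower and 9.11% were called higher. The Con and EX values did not overlap for 5 of the 10 genes, each time with EX lower, against 33.7% of all genes in either direction and 16.9% with EX lower. The median log2 fold change of the 10 was -0.15, with 9 of them below 0, and that of all genes tested was 0.00. These 4 genes were past the threshold in each of the 15 alternatives tried. With 3 mice against 3, the smallest p of an exact permutation test of a single value is 0.1, and it was reached by the same 4 genes and by Klf15.

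**Figure D2:**
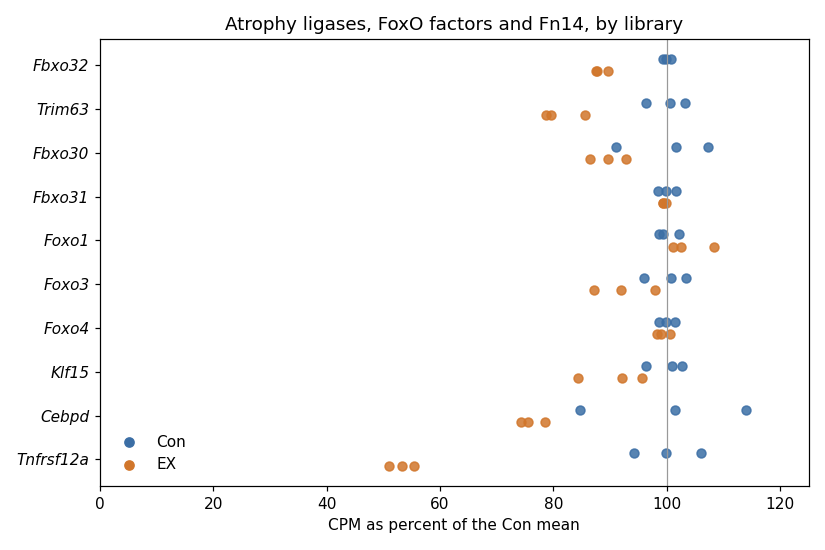
CPM of each gene in each library as a percent of its Con mean (vertical line), with Con in blue and EX in orange. All EX points of Fbxo32, Trim63, Klf15, Cebpd and Tnfrsf12a lie to the left of all their Con points, and Tnfrsf12a stands apart with 51.1% to 55.5% of its Con mean.

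Of the 4 ligases, Fbxo32 and Trim63 fell, and Fbxo30 and Fbxo31 did not pass the test. Fbxo32, the substrate-binding subunit of an SCF ubiquitin ligase, stood at 672, 662 and 666 CPM in Con replicates 1 to 3. In EX replicates 1 to 3 it stood at 597.5, 584 and 583.5 CPM. Every EX value lay below every Con value, and replicates of a group differed little, with a coefficient of variation of 0.776% in Con and 1.34% in EX. Fbxo32 fell by 0.18 on the log2 scale (standard error 0.03, edgeR adjusted p = 0.00025), or to 0.883 times its Con level. Trim63, a RING ligase that marks thick filament proteins for breakdown, stood at 495, 462 and 482 CPM in Con and at 377, 410 and 382 CPM in EX. Its groups did not overlap either, although EX replicate 2 was nearer to the Con values than the other two. Trim63 fell by 0.30 on the log2 scale (standard error 0.04, edgeR adjusted p = 1.6e-06), or to 0.813 times its Con level. Over the alternatives the difference ranged from -0.27 to -0.17 for Fbxo32 and from -0.40 to -0.28 for Trim63.

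Within each library, Fbxo32 made up 0.304, 0.325 and 0.314 of the TPM of Trim63 in Con and 0.360, 0.323 and 0.348 in EX. These ratios overlapped between the groups, since the value of EX replicate 2 lay under that of Con replicate 2. Together, Fbxo32 and Trim63 held 90.1% ± 0.437 (SD, n = 3) of the TPM of the 4 ligases in Con and 88.5% ± 0.400 in EX. The summed TPM of the 4 ligases was 690 ± 18.1 in Con and 545 ± 7.82 in EX, a ratio of 0.789 on the TPM scale, where 74.0% of all genes tested were lower in EX.

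Fbxo30, the ligase MUSA1, stood at 25.3, 28.2 and 29.8 CPM in Con and at 25.8, 24.0 and 24.9 CPM in EX. Con replicate 1 lay among the EX values, so the groups overlapped. Its log2 fold change was -0.16 (95% interval -0.30 to -0.02, edgeR adjusted p = 0.102). Without Con replicate 1 it was -0.22 (adjusted p = 0.0167), and with limma on TPM it was -0.27 (adjusted p = 0.0492). Only these 2 of the 15 alternatives were past the threshold, and without Con replicate 3 it was -0.11 (edgeR adjusted p = 0.36). Fbxo31, an F-box protein best known for its part in the cell cycle, had the smallest difference of the 4 ligases, at 166 to 171 CPM in Con and 167 to 168 CPM in EX. Its log2 fold change was -0.01, with a 95% interval from -0.09 to 0.07, so a change as large as that of Trim63 lay outside this interval.

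None of the 3 FoxO factors passed the test. Foxo1 stood at 33.7, 32.8 and 32.5 CPM in Con and at 33.9, 35.8 and 33.4 CPM in EX. It was the only one of the 10 genes with a positive log2 fold change, 0.06 (95% interval -0.06 to 0.18, edgeR adjusted p = 0.543), and its sign turned with limma on FPKM or TPM. Foxo3 stood at 38.6, 37.7 and 35.9 CPM in Con and at 36.6, 32.5 and 34.4 CPM in EX. These groups overlapped through Con replicate 3 and EX replicate 1. Its log2 fold change was -0.11 (95% interval -0.24 to 0.01, edgeR adjusted p = 0.192). Foxo4 stood at 123, 124.8 and 121 CPM in Con and at 122, 124 and 121 CPM in EX, with a log2 fold change of -0.01 (95% interval -0.09 to 0.07).

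Within each library, Foxo4 made up 75.5% ± 0.362 (SD, n = 3) of the summed FoxO TPM in Con and 74.6% ± 0.773 in EX, and Foxo1 10.7% ± 0.179 and 11.1% ± 0.334. Foxo3 made up 9.66% ± 0.230 in Con and 8.82% ± 0.527 in EX. Foxo6, the FoxO gene outside the 10, was the least abundant, with 4.07% ± 0.339 in Con and 5.44% ± 0.545 in EX. Its CPM was 5.09, 5.03 and 5.71 in Con and 7.76, 6.37 and 7.18 in EX, with every EX value above every Con value. Foxo6 rose by 0.43 on the log2 scale (edgeR adjusted p = 0.0203), while its adjusted p was 0.104 with DESeq2.

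**Figure D3:**
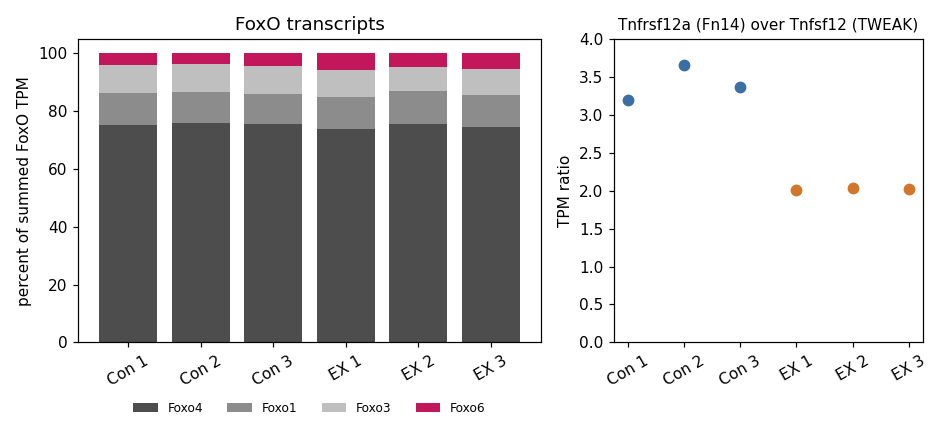
Left, percent of the summed TPM of Foxo1, Foxo3, Foxo4 and Foxo6 held by each gene in each library; right, TPM of Tnfrsf12a (Fn14) divided by that of its ligand Tnfsf12 (TWEAK) in each library. Foxo4 takes about the same part of each bar, and the 3 EX ratios on the right lie near 2.02, below all Con ratios.

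Cebpd fell in EX and Klf15 did not pass the test. Cebpd, a C/EBP factor induced by glucocorticoids and inflammatory cytokines, stood at 23.1, 17.2 and 20.6 CPM in Con and at 15.1, 15.9 and 15.3 CPM in EX. The Con values were spread widely, with a coefficient of variation of 14.7% against 2.83% in EX, and the lowest of them was near the highest EX value. Cebpd fell by 0.39 on the log2 scale (standard error 0.09, edgeR adjusted p = 0.00224). Its log2 fold change ranged from -0.50 without Con replicate 2 to -0.30 without Con replicate 1, with an adjusted p of at most 0.0178 over all alternatives.

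Klf15, a Krüppel-like factor that drives genes of amino acid breakdown, stood at 59.4, 55.7 and 58.4 CPM in Con and at 48.8, 55.3 and 53.2 CPM in EX. The groups did not overlap, but EX replicate 2 came close to Con replicate 2. The log2 fold change was -0.14 (95% interval -0.25 to -0.03, edgeR adjusted p = 0.0633). It was past the threshold in 6 of 15 alternatives, among them limma on log2(FPKM + 0.1) with -0.31 (adjusted p = 0.0125) and edgeR without EX replicate 2 with -0.18 (adjusted p = 0.04). Without EX replicate 1 the log2 fold change was -0.09 (edgeR adjusted p = 0.287). Beside the larger difference in FPKM stood a difference in the length that FPKM divides by. The ratio of count to FPKM, relative to the other genes of a library, was higher in every EX library of Klf15 than in every Con library, by 0.11 on the log2 scale. This was a larger shift than in 98.8% of the genes with more than 1 FPKM in every library. For the other 9 genes it was 0.03 or less in size.

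Tnfrsf12a had the largest difference of the 10 and was at about 53% of its Con level in EX. Its counts were 263, 279 and 267 in Con and 144, 155 and 149 in EX. On the CPM scale these were 18.9, 17.8 and 16.8 in Con and 9.08, 9.87 and 9.46 in EX, so that the lowest Con value was well above the highest EX value. Tnfrsf12a fell by 0.91 on the log2 scale (standard error 0.09, 95% interval -1.09 to -0.73, edgeR adjusted p = 1.3e-08). Ordered from the most negative fold change, it was number 29 of the 10883 genes tested. Every alternative gave a log2 fold change between -0.999 and -0.87.

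The ligand Tnfsf12 (TWEAK) stood at 12.6, 10.4 and 10.7 CPM in Con and at 9.65, 10.4 and 9.97 CPM in EX. Its log2 fold change was -0.16 (95% interval -0.37 to 0.04, edgeR adjusted p = 0.285), although its lowest Con value lay just above its highest EX value. None of its 6 estimated counts was a whole number. The TPM of Tnfrsf12a was 3.20, 3.65 and 3.37 times that of Tnfsf12 in Con and 2.01, 2.04 and 2.02 times in EX. The 3 EX ratios were almost equal and lay below all Con ratios. In bulk tissue, fewer cells of a type and less RNA per cell cannot be told apart for this receptor, which cells other than muscle fibres also make.

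**Figure D4:**
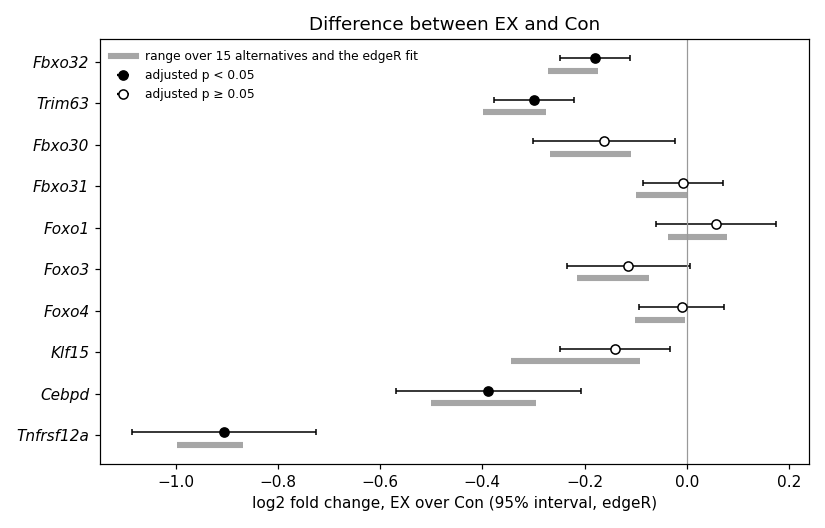
Log2 fold change of EX over Con for each gene from edgeR with its 95% interval (filled circles, adjusted p under 0.05; open circles, not under 0.05). Grey bars give the range over the edgeR fit and 15 alternatives; Fbxo32, Trim63, Cebpd and Tnfrsf12a stay below 0 throughout, and the bars of Fbxo31 and Foxo1 cross 0.

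Markers of other cell types also moved with the groups, and their part in the differences above was not tested. Of the tested markers, 5 of 6 for macrophages were higher in EX, with a summed level of 59.0 to 61.6 TPM in Con and 99.3 to 104 TPM in EX over all 10 listed genes. For endothelium 4 of 8 were lower and 1 higher, with 302 to 311 TPM in Con and 255 to 261 TPM in EX. The increase, of Cldn5, was not called with DESeq2, with limma or without Con replicate 2, and without EX replicate 3 only 2 decreases were called. For Schwann cells 3 of 4 were lower, with 90.7 to 100.4 TPM in Con and 65.9 to 69.0 TPM in EX. For fibroblasts 3 of 10 were higher, all of them collagens, with 554 to 590 TPM in Con and 600.3 to 628 TPM in EX, and for tendon 3 of 7, with 111 to 124 TPM and 148 to 154 TPM. For adipocytes 4 of 6, Adipoq among them, were higher and Lpl was lower, with a sum of 1110 to 1237 TPM in Con and 1022 to 1073 TPM in EX. Most of this sum was Fabp4, which was not called (log2 fold change -0.09, edgeR adjusted p = 0.112). Its level was 612 to 690 FPKM in Con and 577 to 596 FPKM in EX. The 4 increases, of Adipoq, Cidec, Retn and Cfd, were by 1.19 to 1.55 on the log2 scale. For regenerating fibres and satellite cells 3 of 6 were higher, with 706 to 774 TPM in Con and 1972 to 2081 TPM in EX. Most of this sum was Actc1, a close relative of Acta1, at 442 to 483 FPKM in Con and 1327 to 1402 FPKM in EX. FPKM and TPM differ in scale, so its share cannot be read by setting these values against the sum. On the FPKM scale the next highest of the list, Myod1, stood at 27.1 to 29.9 in Con and 35.8 to 37.1 in EX. Myod1 and Myog were the other calls, and the satellite cell markers Pax7, Myf5 and Cdh15 had log2 fold changes of -0.08, -0.02 and -0.10 and did not pass the test. Under the filter, Myh3, Myh8 and Mymk were higher in EX in the edgeR fit without a filter. For blood 1 of 5 was higher, with 1282 to 1414 TPM in Con and 1353 to 1447 TPM in EX, and this call was lost with limma and without EX replicate 2. Mymk, Mymx, Lep and Slc4a1 were at 0 in at least 1 Con library.

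Around the ligases, Fbxo40 was the only other E3 ligase of a list of 20 that fell. This muscle F-box protein, known for acting on the insulin receptor substrate IRS1, stood at 705, 701 and 714 CPM in Con and at 612.5, 618 and 621 CPM in EX. It fell by 0.20 on the log2 scale (edgeR adjusted p = 7.9e-05), a difference close in size to that of Fbxo32, and in every alternative it was past the threshold. Trim55 (MuRF2) rose by 0.24, Trim72 by 0.19 and Asb2 by 0.13, and 15 of the 19 tested were not called. In this list 21.1% were called, against 17.9% of all genes, and the median log2 fold change was -0.01. With limma on TPM the list had 0 increases and 4 decreases, and the adjusted p was 0.0825 for Trim55, 0.0826 for Trim72 and 0.603 for Asb2. Of 14 tested partners of the ligases (among them SCF subunits, conjugating enzymes and proteasome subunits), the conjugating enzymes Ube2d1 and Ube2b rose by 0.14 and 0.13. The rises of Ube2d1 and Ube2b were not past the threshold with limma on TPM (adjusted p = 0.573 and 0.604), where the median of the 14 turned from 0.06 to -0.04. Neither rise was past it with limma on FPKM, without EX replicate 1 or without EX replicate 3. DESeq2 called 1 increase in this list, as did the fits with totals without the 20 most abundant genes and without Con replicate 1 or Con replicate 2.

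FoxO target genes moved in both directions. Of 23 tested, 5 rose and 6 fell, or 47.8% called against 17.9% of all genes, with a median log2 fold change of -0.06. DESeq2 called 4 of them higher and 3 lower, and limma on TPM 4 higher and 8 lower. Without EX replicate 2 the median was -0.01, and without EX replicate 1 or EX replicate 3 only 3 decreases were called. Cited2, a transcriptional co-regulator, had the largest difference and fell from 131, 132 and 131 CPM in Con to 75.4, 73.6 and 75.8 CPM in EX. Its log2 fold change was -0.81 (standard error 0.04, edgeR adjusted p = 2.8e-14). Depp1, a FoxO-induced regulator of autophagy, fell from 11.9, 9.99 and 10.2 CPM to 6.56, 7.004 and 5.21 CPM (log2 fold change -0.77, edgeR adjusted p = 2.8e-05). Mstn, the inhibitor of muscle growth myostatin, rose by 0.51, and Irs2, an adaptor of the insulin receptor, rose by 0.39. The other calls, named after their values were seen, were increases of Map1lc3a, Gadd45a and Cdkn1a by 0.27 to 0.29 and decreases of Pdk4, Sesn1, Gabarapl1 and Ulk1 by 0.12 to 0.19. Of these, Sesn1, Gabarapl1, Ulk1 and Cdkn1a were not past the threshold in every alternative, with adjusted p-values of up to 0.137, 0.153, 0.199 and 0.202.

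Upstream of FoxO, 4 of 18 tested genes fell and 1 rose, or 27.8% called against 17.9% of all genes, with a median log2 fold change of -0.11. DESeq2 called 2 lower and 1 higher, and limma on TPM called 7 lower and none higher. The receptor Igf1r fell by 0.36 (edgeR adjusted p = 0.00039). Irs1 rose by 0.20, the acetyltransferase Ep300 fell by 0.19 and the forkhead factor Foxk1 fell by 0.17. Pdpk1, the kinase that activates Akt, fell by 0.15. Of these, only Igf1r was past the threshold in every alternative, and the highest adjusted p was 0.155 for Irs1, 0.0846 for Ep300, 0.0935 for Foxk1 and 0.187 for Pdpk1. Akt1 and Akt2 had log2 fold changes of -0.07 and 0.02 (edgeR adjusted p = 0.319 and 0.734).

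The glucocorticoid axis gave a mixed picture beside Klf15 and Cebpd. Of 16 tested genes, 5 rose and 2 fell, or 43.8% called against 17.9% of all genes, with a median log2 fold change of 0.07. With limma on TPM, 4 were higher and 5 lower and the median was -0.03. Tsc22d3 (GILZ), a classic target of the glucocorticoid receptor, rose from 219.5, 219 and 229 CPM in Con to 344, 339 and 348.5 CPM in EX, by 0.63 on the log2 scale (standard error 0.04, edgeR adjusted p = 4.5e-13). Its groups lay far apart, in the direction opposite to that of Cebpd. Glul, which makes glutamine, rose by 0.46, and Fkbp5, a co-chaperone of the receptor, by 0.39. Arrdc2 rose by 0.34 and, named after its values were seen, Zbtb16 by 0.25, while Per1 and Pdk4 fell by 0.17 and 0.19. Per1 was not past the threshold without EX replicate 1 (adjusted p = 0.0572), and Zbtb16 was not with limma on TPM (adjusted p = 0.0765). The receptor Nr3c1 itself stood at 107 ± 2.35 (SD, n = 3) CPM in Con and 106 ± 0.540 in EX. Of 11 tested genes of amino acid breakdown and transport linked to Klf15, 2 rose, Slc7a8 by 0.28 and Oat by 0.12, which made 18.2% called against 17.9% of all genes. With limma on TPM neither was past the threshold (adjusted p = 0.305 and 0.612), 3 of the 11 were called lower, and the median turned from 0.01 to -0.08. With limma on FPKM and without EX replicate 3, no gene of this list was called. Only 1 increase was called with totals without the 20 most abundant genes, without EX replicate 2 and without any 1 of the Con replicates.

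**Figure D5:**
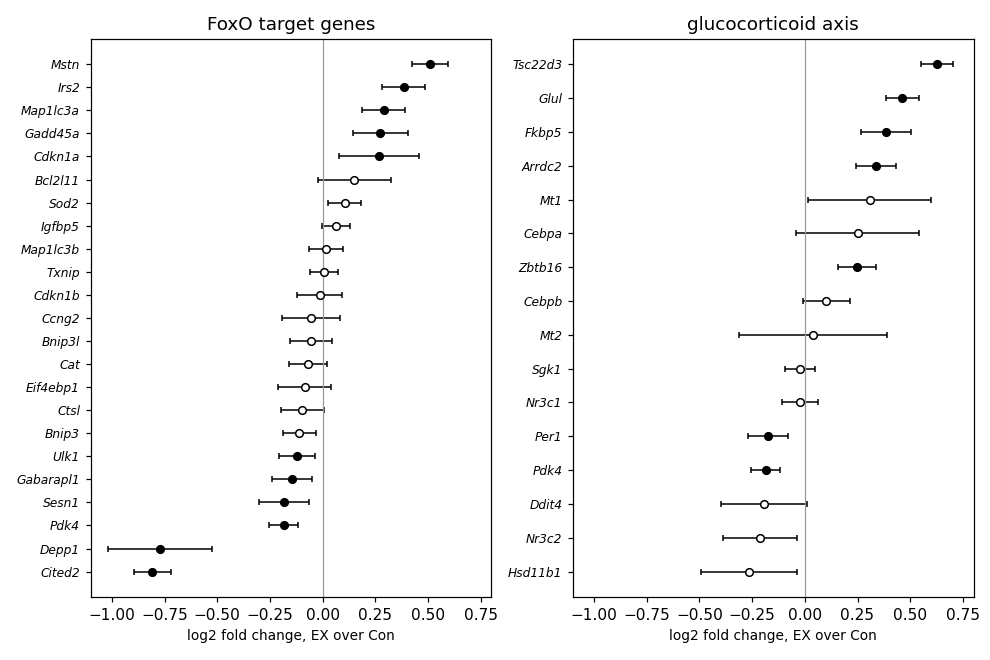
Log2 fold change of EX over Con with its 95% interval from edgeR for 23 FoxO target genes (left) and 16 genes of the glucocorticoid axis (right), each ordered by its value; filled circles have an adjusted p under 0.05. Cited2 and Depp1 stand apart at the bottom left, and Tsc22d3 is at the top right; Pdk4 and Sgk1 belong to more than 1 list.

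Around Fn14, the list held its ligand Tnfsf12, TRAF adaptors, NF-kB subunits and their regulators. Of the 18 tested, 1 fell and none rose, or 5.56% called against 17.9% of all genes, with a median log2 fold change of -0.02. The gene was Traf3, an adaptor that restrains the NF-kB-inducing kinase, at 27.4, 27.2 and 27.2 CPM in Con and 23.8, 23.3 and 23.0 CPM in EX. Traf3 fell by 0.22 on the log2 scale (edgeR adjusted p = 0.0129), and its adjusted p was 0.0885 with DESeq2. Its call was also lost without EX replicate 3. Limma on TPM called 4 of the 18 lower and none higher. Cd163, a macrophage receptor that also binds TWEAK, was too low to pass the filter: Con libraries held 48 to 57 counts and EX libraries 65 to 84.

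Genes known to respond to loss of the nerve, as Fn14 does, were mixed. Of 10 tested, 4 rose and 2 fell, or 60% called against 17.9% of all genes, and with limma on TPM 3 rose and 3 fell. Myog, a myogenic transcription factor, rose by 0.99 and Musk, the kinase of the neuromuscular junction, by 0.42. Chrnd, a subunit of the acetylcholine receptor, fell by 0.70 and the deacetylase Hdac9 by 0.35. The call of Hdac9 was lost with DESeq2, without Con replicate 3 and without EX replicate 3 (adjusted p = 0.0834 in the last). The other calls, named after their values were seen, were increases of Gadd45a by 0.27 and of Chrna1 by 0.23. Chrna1 was not past the threshold with limma on TPM (adjusted p = 0.242) or FPKM, with DESeq2 or with the replicate block. Its call was also lost with totals without the 20 most abundant genes, and without Con replicate 2, Con replicate 3, EX replicate 2 or EX replicate 3. Of 4 listed genes under the filter, Dach2 and Chrng were past the threshold in the edgeR fit without a filter. Dach2, a transcriptional repressor, had counts of 45, 57 and 83 in the Con libraries, against 32, 26 and 35 in those of EX (log2 fold change -1.04, adjusted p = 8.8e-05). Chrng, the embryonic subunit of the acetylcholine receptor, was counted 4, 8 and 11 times in EX but only 1, 0 and 0 times in Con (adjusted p = 0.00174).

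The genes whose profiles over the 6 libraries lay nearest to 3 of the 10 were found by the root mean square difference of log2 CPM, each centred on its own mean. Being lower in EX was part of the profile they were chosen for, so their values are a description with no test. For Tnfrsf12a they were Chac1, a glutathione-degrading enzyme, at 0.03, Nr1d1, the clock repressor REV-ERBα, at 0.05, and Serpina1b, a liver antitrypsin gene with near-identical copies, at 0.08. Chac1 stood at 305, 280 and 276 CPM in Con and at 155, 162 and 157 CPM in EX. Nr1d1 stood at 386, 338 and 323 CPM in Con and at 193, 202 and 187 CPM in EX. For Trim63 they included Lama5, a laminin chain, at 0.02 and Mindy1, a deubiquitinase, at 0.03. The log2 fold change of Lama5 was -0.33. For Fbxo32 they were Gng12, Usp24 and Ep400, at 0.01 to 0.02.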

How the data were processed

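RNA of hind leg muscle from 3 Con and 3 EX mice was read as 150 bp pairs on the DNBseq platform. The paper names HISAT and assembly GRCm39, and the submitters' processing notes name GRCm38.p6, cutadapt, featureCounts and MultiQC; the table gives no positions, and the promoter windows are on GRCm38.p6. The authors deposited estimated counts, which are not normalized, and FPKM and TPM values made from them, for each gene and library. The 6 columns of group means were not used. Counts were rounded to whole numbers and fitted with edgeR 4.0.16 (TMM, glmQLFit and glmQLFTest) in R 4.3.3 over genes whose mean reached 1 FPKM. Alternatives were limma 3.58.1 on log2(FPKM or TPM + pseudocount), which understates changes of low genes, DESeq2 1.42.0, other scalings and filters, a replicate block and each library left out. The tests were checked on simulated data.

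The 10 genes, the pathway and marker lists and the tests were chosen with earlier results of these data known. Named genes are the 10, Tnfsf12, Foxo6, up to 4 called genes of largest change in each pathway list, the 3 nearest profiles of Fbxo32, Trim63 and Tnfrsf12a, and cell type markers of lists that moved with the groups. Outside this rule, Akt1, Akt2, Pdpk1, Nr3c1, Per1, Pdk4, Cd163, Dach2 and Chrng, and the genes so described in the text, were named after their values were seen. Some genes stand in more than 1 list. Some genes that this rule or the lists take in are not reported here. No replicates had identical or nearly identical counts. A p-value measures the spread between mice of these groups only.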

Additional observations from a re-analysis of the deposited data

How the results depend on the processing

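The count of the 10 genes past the threshold was 4 in the main edgeR fit and 4 to 6 in the 15 alternatives, none of which called an increase among them. Leaving out 1 library gave 4 to 5 of the 10 and 1337 to 1860 of all genes, against 1949 with all libraries. DESeq2 called 1228 genes, and 4 of the 10. The sign turned for genes that were not called: Foxo1 was at -0.0358 with limma on log2(TPM + 0.1), at -4e-04 with limma on log2(FPKM + 0.1) and at -3e-04 with limma on log2(FPKM + 1), and Fbxo31 was at 0.0029 without Con replicate 3, the highest of its values with 1 library left out, which began at -0.0232. The replicate numbers did not pair the mice: deviations from the group means had correlations of -0.08, -0.05 and -0.07 between samples of the same number. With the replicate number as a block, 1782 genes were called, among them 4 of the 10, and no call of the 10 changed. Of 150 values of single genes under the alternatives, 138 kept their direction and side of the threshold, 8 came past the threshold (Klf15 and Fbxo30) and 4 turned sign.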
